A study of Mus musculus with 6 samples.

Results

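Major histocompatibility complex (MHC) class II molecules display peptides from the endocytic route to CD4+ T cells. Each is a pair of an alpha and a beta chain that is assembled on the invariant chain Cd74, carried to late endosomes and loaded with peptide by the chaperone H2-DM. Their genes are switched on together by Ciita, a coactivator that binds no DNA itself and docks on factors sitting at the X and Y boxes of class II promoters. Dendritic cells, macrophages and B cells make class II constitutively, and interferon-gamma induces it in many other cells through Ciita.

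The genes described here are H2-Aa, H2-Ab1 and H2-Eb1 (chains of the peptide-presenting molecules), H2-DMa, H2-DMb1, H2-DMb2 and H2-Oa (chains of the loading chaperone and of its modulator H2-O), Cd74 and Ciita. They were chosen by symbol from the deposited gene table. Of these 9 symbols, 8 are among the table's 6467 genes, and H2-Oa is not, so no value is given for it.

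The RNA-seq table covers CD8+ T cells infiltrating the tumour, sorted on a flow cytometer from wild-type C57BL/6J mice bearing MC38, a colon carcinoma. The 3 control libraries came from mice given PBS. The 3 treated libraries came from mice given 30 µg αPD-1-IL-15-R, which joins an antibody to PD-1 with a concealed form of the cytokine IL-15 as the study's title describes it, by intraperitoneal injection on days 14 and 17, with cells taken 48 hours after the later injection. No group received anti-PD-1 or IL-15 alone. The labels give neither the age of the mice nor whether a library is 1 mouse or a pool, so the p-values measure only the spread between these libraries, which may be partly technical.

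The table's genes held between 8484736 and 9403710 reads per library. The authors kept only genes with a q-value under 0.05, which was 37.9% of the 17077 genes they tested, and 21.9% of the tested genes were in the table as lower. Presence in the table is therefore itself a result of this contrast, and the counts below describe genes already past that threshold. The sort label was checked against 11 T cell markers: Cd8b1, Cd3d, Cd247 and Cd2 are in the table and higher in treated libraries, none of them past the edgeR threshold, and the other 7, Cd8a among them, are outside it. Their summed level ranged from 8796 to 22967 normalised reads in PBS and from 27544 to 35864 in treated libraries. T cell markers alone cannot show whether other cells were present. In PBS, 16 macrophage and monocyte markers summed to 41745 to 53361 reads and 9 fibroblast markers to 25212 to 49763. In treated libraries these sums were 8545 to 19193 and 1073 to 9395. Which cells the class II RNA came from was not tested.

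Promoter sequences are shown for the 4 genes of the set in the gene table with a RefSeq promoter that holds the Y box (GRCm38.p6, 250 bases before to 50 after the transcription start). Whether these sequences bear on the changes in RNA was not tested. The Y box was searched as TGATTGG on both strands, and the core of the X box as GNAAC ending at most 40 bases before it on the same strand. The letters were chosen with these sequences in view, and the motifs do not overlap. Capitals mark the matches. The windows lie at chr17:34287859-34287918 on the minus strand for H2-Aa, and on the plus strand at chr17:34305761-34305820 for H2-Eb1, chr17:34153083-34153142 for H2-DMb1 and chr17:34145112-34145171 for H2-DMb2.
H2-Aa: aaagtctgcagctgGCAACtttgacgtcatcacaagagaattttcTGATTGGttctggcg
H2-Eb1: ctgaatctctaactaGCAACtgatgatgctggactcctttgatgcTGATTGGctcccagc
H2-DMb1: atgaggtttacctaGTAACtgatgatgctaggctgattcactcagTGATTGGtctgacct
H2-DMb2: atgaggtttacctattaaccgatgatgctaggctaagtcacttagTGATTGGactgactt
The Y box began 50, 61, 63 and 92 bases before the start of H2-Aa, H2-Eb1, H2-DMb1 and H2-DMb2. The X core lay 26, 25 and 26 bases before it in the first 3, and GNAAC had no match in the window of H2-DMb2. Of all 32851 RefSeq promoters of this length, 7.82% hold TGATTGG and 1.05% hold both motifs in this arrangement. Counted by gene, 11.2% of the 5076 genes of the deposited gene table with a promoter hold TGATTGG. Neither promoter listed for H2-DMa holds TGATTGG. H2-Oa, without a value here, holds both. Of the set, 6 symbols had a promoter in the table of sequences, and the matches describe letters in these windows only.

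All 8 genes were lower in the treated libraries, as were 57.7% of the table's genes, by 2.56-fold for H2-DMa and by 5.01-fold to 7.0-fold for the other 7. The edgeR quasi-likelihood test called all 8 lower, against 20.7% of the 6251 genes it fitted. The median log2 change was -2.49 for the 8 genes and -0.57 for all fitted genes. In every one of the 8 the highest treated library lay below the lowest PBS library, which was also true of 57.2% of the table's genes. The edgeR adjusted p was 0.04 for each gene, a value set by the whole table, since the lowest of any fitted gene was the same. These calls rested on 4 of the 6 libraries: without PBS library 1, PBS library 3, treated library 2 or treated library 3, edgeR called 0 of the 8 genes and 0 of all genes, with member adjusted p between 0.0877 and 0.175, although each of the 8 then still had an unadjusted p under 0.05. Without PBS library 2 edgeR called all 8 (adjusted p between 0.0355 and 0.0394), and without treated library 1 it called all 8, against 47.8% of genes. DESeq2 on all libraries called all 8, against 56.8% of genes. In bulk libraries, fewer cells of a type and less RNA per cell cannot be told apart.

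Ciita, the regulator, was the least abundant per length. It stood at 290, 346 and 369 normalised reads in PBS libraries 1 to 3 and at 91.9, 56.4 and 52.3 in treated libraries 1 to 3, so every PBS library held over 3 times the reads of any treated one (lowest PBS over highest treated, 3.15). The means were 335 ± 40.6 and 66.8 ± 21.8 (SD, n = 3), with -2.32 as the log2 change (SE 0.29, edgeR adjusted p = 0.04). In TPM, the authors' length-corrected abundance, it went from 5.02 ± 0.95 to 0.72 ± 0.30.

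The presenting chains H2-Aa and H2-Ab1, which pair to form the I-A molecule, were near-equal in level. H2-Aa stood at 5992, 5363 and 6438 normalised reads in PBS and at 1845, 843 and 735 in treated libraries. Treated library 1 held 2.19 times the reads of treated library 2 and 2.51 times those of treated library 3, and all 3 were below every PBS library. The log2 change of H2-Aa was -2.38 (SE 0.39, edgeR adjusted p = 0.04). H2-Ab1 stood at 6365, 5510 and 6867 reads in PBS and at 1710, 809 and 652 in treated libraries, again highest in treated library 1. Its log2 change was -2.56 (SE 0.40, edgeR adjusted p = 0.04).

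H2-Eb1 encodes the beta chain of the I-E molecule, which C57BL/6 mice do not display because their H2-Ea gene is defective. Its RNA was nonetheless present, at 3529, 2964 and 4102 normalised reads in PBS against 928, 444 and 345 after treatment. It fell by 2.62 on the log2 scale (SE 0.41, edgeR adjusted p = 0.04) and kept the same order of libraries as the I-A chains. H2-Ea, H2-Eb2 and H2-Ob, the other class II genes listed, are outside the table.

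Cd74, which fills the groove of new class II molecules and escorts them, was the most abundant of the set. It stood at 15750, 14560 and 18311 normalised reads in PBS and at 4453, 1919 and 1834 in treated libraries, a fall by 2.57 on the log2 scale (SE 0.40, edgeR adjusted p = 0.04). Treated library 1 held 2.32 times the reads of treated library 2, while treated libraries 2 and 3 differed by 1.05 times.

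**Figure D1:**
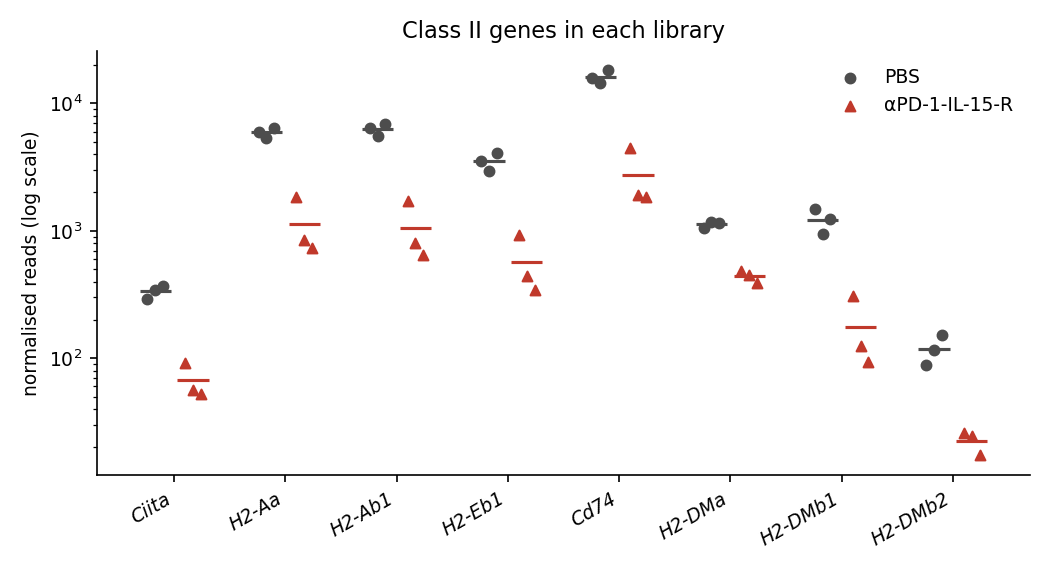
Normalised reads (deposited counts divided by the authors' size factors, log scale) of the 8 genes in each of the 3 PBS libraries (grey circles) and 3 treated libraries (red triangles, in library order), with bars at the group means. The groups do not overlap for any gene, and H2-DMa has the smallest gap, its lowest PBS library being 2.19 times its highest treated one.

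The chains of the loading chaperone split. H2-DMa, the alpha chain, fell least, from 1054, 1173 and 1152 normalised reads in PBS to 480, 450 and 390 in treated libraries, or -1.36 in log2 (SE 0.12, edgeR adjusted p = 0.04). It was also the steadiest, with a coefficient of variation of 5.65% in PBS and 10.4% in treated libraries. H2-DMb1, a beta chain, was the largest fall of the set, from 1496, 943 and 1240 reads to 306, 126 and 93.8, or -2.80 in log2 (SE 0.50, edgeR adjusted p = 0.041). It was also among the most variable, at 22.6% in PBS and 65.4% in treated libraries. H2-DMb2, the second beta chain gene, went from 88.4, 116 and 152 reads to 25.7, 24.4 and 17.2, or -2.41 in log2 (SE 0.34, edgeR adjusted p = 0.04).

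The H2-DMb genes are near copies: their longest GENCODE M21 protein-coding transcripts were 94.3% identical over 1211 aligned bases, and 25.2% of the 50-base windows of H2-DMb2 also occur in H2-DMb1. All 6 deposited counts of each are fractional, and with copies this close the separate values are uncertain. Summed, the H2-DMb genes went from 1345 ± 266 to 198 ± 118 reads (SD, n = 3), a ratio of means of -2.77 on the log2 scale. The counts of H2-DMa and Ciita are also fractional in all 6 libraries, and those of H2-Aa, H2-Ab1, H2-Eb1 and Cd74 are whole.

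In order of fall, the genes ran H2-DMb1, H2-Eb1, Cd74, H2-Ab1, H2-DMb2, H2-Aa, Ciita and H2-DMa. Neighbours in this order did not separate: the ratio of the reads of each gene to those of the next overlapped between groups for 6 of the 7 steps. The last step was the exception. The ratio of Ciita to H2-DMa was 0.28, 0.30 and 0.32 in PBS and 0.19, 0.13 and 0.13 in treated libraries, a log2 difference of -1.01 (exact permutation test, two-sided, p = 0.10, the smallest that 3 against 3 libraries allow, 0.23 adjusted over the 16 ratios computed). H2-DMa had the smallest fall and H2-DMb1 the largest in all 18 alternative analyses run, which share the same libraries.

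H2-Aa, H2-Ab1, H2-Eb1 and Cd74 kept close to each other across libraries, and the H2-DM genes and Ciita less so. Relative to its PBS mean, H2-DMb1 stood at -3.26 and -3.68 on the log2 scale in treated libraries 2 and 3, where H2-DMb2 stood at -2.23 and -2.72. Over the 6 libraries, the log2 ratio of a pair of members had a standard deviation between 0.06 and 1.04 (median 0.33 over 28 pairs). The members' own log2 levels had one between 0.75 and 1.73. Both span the fall from PBS to treated, and ratios of genes that fall alike vary less for that reason alone. The contrast therefore cannot show how tightly the members moved, and pairs of other falling genes were not compared. Relative to its PBS mean, the median member stood at -1.86, -2.88 and -3.07 on the log2 scale in treated libraries 1 to 3, and at -0.01, -0.15 and 0.14 in PBS libraries 1 to 3. The spread over members widened where the fall was deeper, from a standard deviation of 0.27 in treated library 1 to 0.62 and 0.65 in treated libraries 2 and 3. Without H2-DMa these were 0.14, 0.35 and 0.36. Treated library 1 was the highest treated library and treated library 3 the lowest for all 8 genes. Without treated library 1 the log2 changes of H2-DMb1, H2-Aa and H2-Ab1 were -3.48, -2.91 and -3.10, and the median of the set was -3.0.

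**Figure D2:**
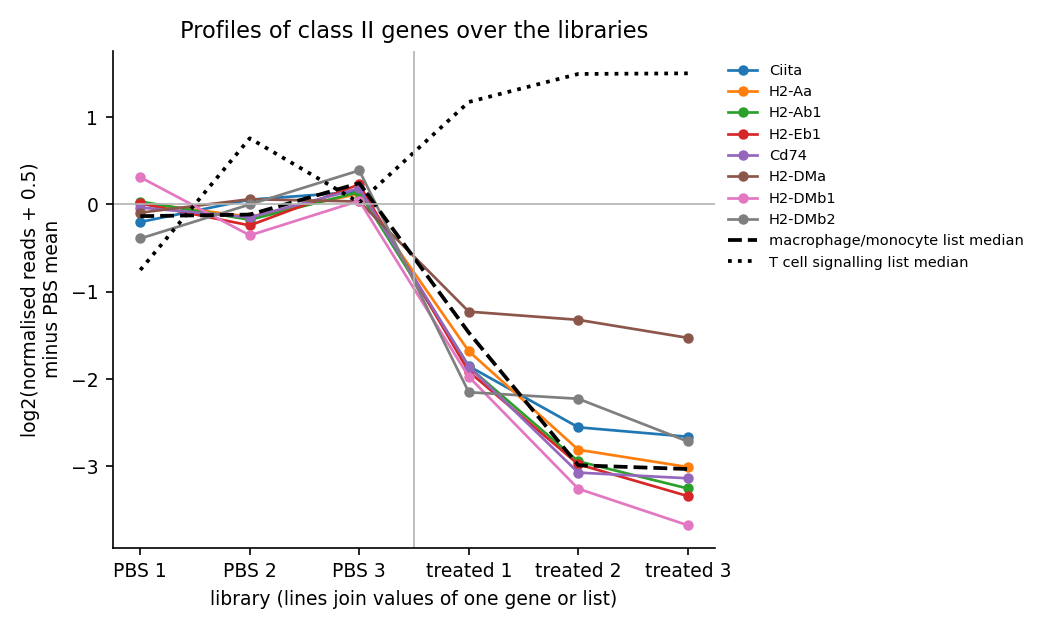
Log2(normalised reads + 0.5) of each gene minus its mean over the PBS libraries (vertical axis), by library (horizontal axis), with the medians of the macrophage and monocyte list (dashed) and of the T cell receptor signalling list (dotted). H2-Aa, H2-Ab1, H2-Eb1 and Cd74 lie close together in treated libraries 2 and 3, with H2-DMb1 below them and H2-DMb2, Ciita and H2-DMa above, around the macrophage list, whose medians in treated libraries 1 to 3 were -1.47, -2.99 and -3.03, and the T cell list goes the other way.

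Levels per length, in TPM, show how the RNA of the partners compared. H2-Aa to H2-Ab1 stood at 1.01, 1.05 and 1.01 in PBS and at 1.16, 1.12 and 1.21 in treated libraries. The ratio was above 1 in every library and higher in each treated library than in any PBS library (exact permutation test, two-sided, p = 0.10, the smallest possible). Cd74 to H2-Ab1 stood at 2.42 ± 0.10 in PBS and 2.43 ± 0.21 in treated libraries (SD, n = 3), with overlapping groups. Relative to H2-Aa, H2-Eb1 went from 0.37 ± 0.03 to 0.31 ± 0.02 and Cd74 from 2.37 ± 0.10 to 2.09 ± 0.09, neither overlapping. The chaperone chains shifted most: H2-DMb1 to H2-DMa was 2.01, 1.14 and 1.53 in PBS and 0.93, 0.41 and 0.37 in treated libraries, below 1 in every treated library. For the sum of the near-identical beta chain genes over H2-DMa the ratio was 2.12, 1.26 and 1.70 in PBS and 1.003, 0.48 and 0.43 in treated libraries, just above 1 in treated library 1. H2-DMa per H2-Ab1 went from 0.12 ± 0.02 to 0.29 ± 0.10. Each ratio whose groups did not overlap had an exact permutation p of 0.10, or 0.23 adjusted over the 16 ratios.

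**Figure D3:**
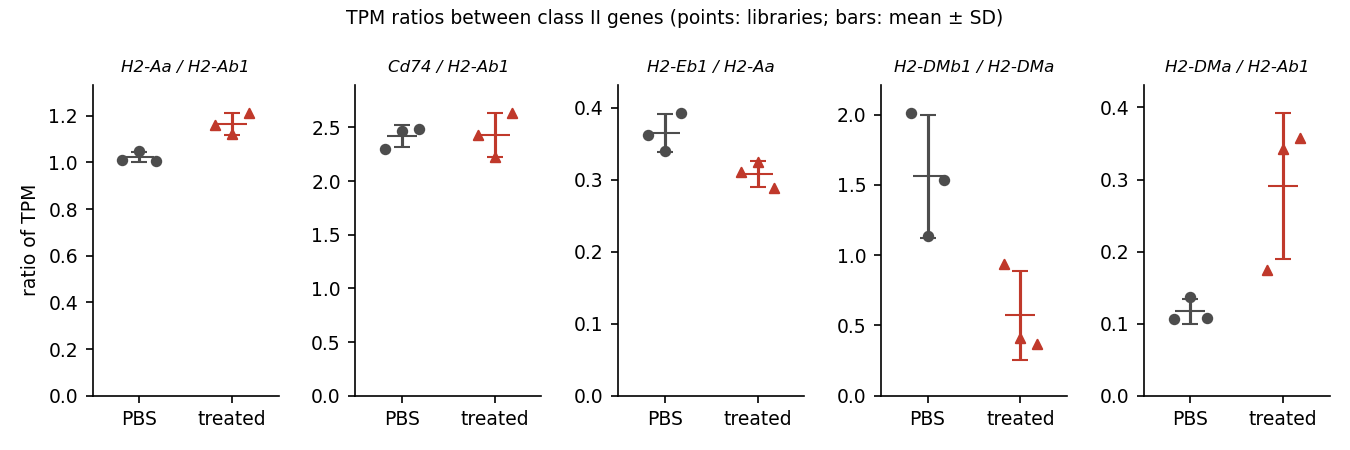
Ratios of TPM between class II genes in each PBS (grey) and treated (red) library, with bars for the mean ± SD of 3 libraries and axes from 0. Cd74 to H2-Ab1 overlaps between groups, and the other 4 ratios do not.

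The members of the set that sit on chromosome 17 are interleaved with genes of class I peptide supply, 4 of which were higher under the authors' scaling and lower when libraries were scaled on T cell receptor signalling genes. In RefSeq's order (GRCm38.p6), the region from H2-Oa to H2-Eb1 holds 13 protein-coding genes, 7 of the set and 6 others, and 4 of those 6 are in the table. Psmb8 and Psmb9, subunits of the immunoproteasome, and Tap1, a chain of the peptide transporter, had log2 changes of 0.74, 0.63 and 0.65, called by edgeR at adjusted p of 0.041, 0.044 and 0.043. Tap2, the partner of Tap1, stood at 0.60 (SE 0.16, edgeR adjusted p = 0.054). All 4 lie between H2-DMb1 and H2-Ab1. Of the table's 6467 genes, 2734 were higher, and edgeR called 16.5% of fitted genes higher. With the T cell scaling the 4 genes stood between -0.86 and -0.76 while the class II set stood at a median of -3.94. Brd2 and H2-Ob, also in the region, are outside the table.

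**Figure D4:**
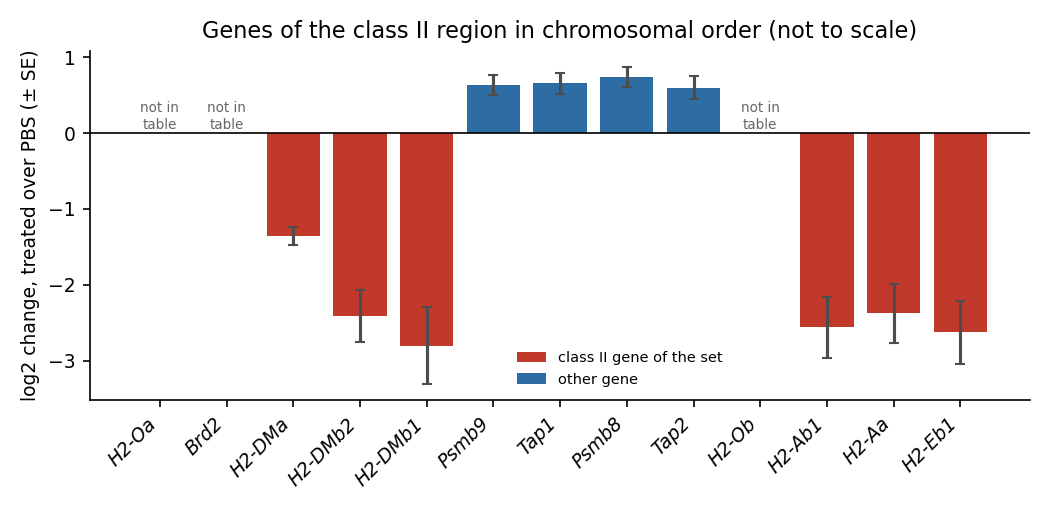
Log2 change, treated over PBS, with its SE from edgeR, for the 13 protein-coding genes of the class II region in their chromosomal order (evenly spaced, not to scale). Class II genes of the set (red) are all below 0 and the 4 other genes in the table (blue) all above it under the authors' scaling, though below 0 under the T cell scaling. The remaining 3 genes are not in the table.

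Of 24 listed regulators of class II transcription, 6 are in the table, and edgeR called 3 higher and 3 lower, against 16.5% and 20.7% of all fitted genes, though only Ifngr1 was higher under the T cell scaling. Spi1, the myeloid and B cell factor PU.1, fell from 781 ± 115 to 166 ± 92.4 normalised reads (SD, n = 3), and Ifngr2, a chain of the interferon-gamma receptor, fell from 721 ± 150 to 140 ± 98.0. Its partner Ifngr1 rose from 4077 ± 1489 to 11533 ± 1569. Nfya and Nfyb, subunits of the factor that binds the Y box, differed in direction, at log2 changes of -0.47 (SE 0.10) and 0.63 (SE 0.12). Jak1, a kinase of the same receptor, stood at 0.80 (SE 0.19, edgeR adjusted p = 0.0496). The X box factor genes Rfx5, Rfxank and Rfxap, and Irf1, are outside the table.

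Genes of peptide generation and class II turnover were mostly lower. Of 17 listed, 15 are in the table, 14 of them lower, against 57.7% of the table, with a median log2 change of -1.36. The edgeR test called 6 lower and 1 higher, against 20.7% and 16.5% of fitted genes. The lower count was 14 with DESeq2, limma-voom or without treated library 1, against 56.8%, 2848 of 6251 and 47.8% of fitted genes. It was 3 with a filter of 50 reads in 3 libraries, against 447 of 5560 fitted genes. Ctss, the protease that trims Cd74, fell from 4675 ± 455 to 2044 ± 772 reads, and Ifi30, the reductase GILT, from 1598 ± 90.9 to 747 ± 117 (SD, n = 3). The largest changes of the list were not called: the proteases Ctsl, Ctsh and Lgmn and the tetraspanins Cd9 and Cd63 stood at -2.73 (SE 0.93), -2.50 (SE 0.63), -2.41 (SE 0.59), -2.49 (SE 0.70) and -2.46 (SE 0.89), with edgeR adjusted p between 0.0506 and 0.103. Marchf1, the ubiquitin ligase that removes class II from the surface, stood at 115 ± 13.7 and 26.6 ± 18.9 (log2 change -2.10, SE 0.53, edgeR adjusted p = 0.053). Ctsd, a lysosomal aspartic protease, was called higher at 0.65 (SE 0.15, edgeR adjusted p = 0.047) but stood at -0.81 under the T cell scaling, where all 15 were lower. Of 10 partners of antigen presentation such as costimulatory ligands, 7 are in the table. The edgeR test called 2 of them lower, against 20.7% of fitted genes. These were Cd83 at -2.57 (SE 0.26) and Cd40 at -2.64 (SE 0.47), both markers of activated antigen-presenting cells. The 4 higher ones, among them Tnfsf4 at 1.3 (SE 0.38) and Pdcd1lg2 at 1.06 (SE 0.33), were not called and were lower under the T cell scaling.

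Listed genes of the class I route in the table, most of them for peptide supply and loading, were mostly higher under the authors' scaling. All were lower under the T cell scaling. Of 18 listed, 10 are in the table, 8 of them higher without overlap, against 42.1% of the table's genes, with a median log2 change of 0.58, and edgeR called 5 higher and 0 lower, against 16.5% of fitted genes called higher. H2-Q7, a non-classical class I gene, had the largest change at 0.93 (SE 0.35, edgeR adjusted p = 0.11), and Tapbp, the loading factor tapasin, stood at -0.32 (SE 0.12, edgeR adjusted p = 0.12). The median was -0.88 under the T cell scaling, and all 10 were higher under median-ratio scaling (median 1.0). Nlrc5, the class I counterpart of Ciita, and H2-K1, H2-D1 and B2m are outside the table. Of 4 listed receptors for class II, Cd4 and Lag3 among them, 0 are in the table.

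Most markers of macrophages, dendritic cells and B cells in the table were lower, as were those of fibroblasts and endothelium. All 16 macrophage and monocyte markers listed are in the table, 15 lower (57.7% of the table's genes were) and Ccr2 higher. The edgeR test called 12 lower, against 20.7% of fitted genes. The median log2 change of the list was -2.31, with no library at 0. The count of 12 became 15 with DESeq2, limma-voom or without treated library 1. Of fitted genes, 56.8%, 2848 of 6251 and 47.8% were called lower there. It became 3 without PBS library 2, where 1369 of 6315 fitted genes were called lower. With the filter of 50 reads it became 2, where 447 of 5560 were. All 8 class II genes were called in each of these settings, with edgeR adjusted p between 0.0473 and 0.0476 under the filter. The summed level of the macrophage markers ranged from 41745 to 53361 normalised reads in PBS and from 8545 to 19193 in treated libraries. Csf1r, the receptor for macrophage colony-stimulating factor, fell from 2520 ± 459 to 393 ± 263 reads, and C1qa, a complement chain made by macrophages, from 3309 ± 490 to 581 ± 408 (SD, n = 3). Like the class II genes, this sum was highest in treated library 1 of the treated libraries. So were the sums of the fibroblast (9395, 1073 and 1351), endothelial (145, 82 and 106) and neutrophil markers (450, 188 and 173 in treated libraries 1 to 3). The sum of the T cell receptor signalling genes was lowest there (99826, 128768 and 122941).

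Of 16 dendritic cell markers, 12 are in the table, 11 lower (57.7% of the table's genes were), of which edgeR called 10 (20.7% of fitted genes were), and Batf3 higher. Summed, they ranged from 9097 to 10796 reads in PBS and from 2884 to 4352 in treated libraries, and Cd209a was at 0 in treated library 3. Fscn1 and Cst3 had the most reads of this list, at PBS means of 3418 and 3253, with log2 changes of -2.67 and -0.71. Flt3, the dendritic cell growth factor receptor, fell from 76.8 ± 47.0 to 8.7 ± 1.7 reads, and Zbtb46, a factor of conventional dendritic cells, from 97.1 ± 8.5 to 25.2 ± 8.2. Xcr1, Ccr7, Clec10a and Il12b are outside the table. Of 16 B cell markers, only Ebf1, Fcrla and Blnk are in the table, all lower, as were 57.7% of its genes. The edgeR test called 2 of them lower, against 20.7% of fitted genes. Summed, they stood at 431 to 607 reads in PBS and 25 to 128 in treated libraries, with Fcrla at 0 in treated library 1. Ebf1 had the most reads of the 3, at means of 374 in PBS and 45.3 in treated libraries. Ms4a1, Cd79a and Pax5 are outside the table.

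Stromal markers were lower too, 9 of 10 fibroblast and 7 of 10 endothelial genes, all those in the table, against 57.7% of the table's genes. Of these edgeR called 1 and 4, against 20.7% of fitted genes. Their summed levels were 25212 to 49763 reads in PBS against 1073 to 9395 in treated libraries, and 340 to 625 against 82 to 145. The median log2 change was -3.33 for the fibroblast and -2.44 for the endothelial markers. The fibroblast count of 1 became 8 with median-ratio scaling or limma-voom, where 1686 of 6238 and 2848 of 6251 fitted genes were called lower. It became 9 with DESeq2 or without treated library 1, where 56.8% and 47.8% of fitted genes were. All 23 T cell receptor signalling genes in the table, of 31 listed, were higher except when they set the scaling, against 2734 of the table's 6467 genes. The edgeR test called 2 of them higher, against 16.5% of fitted genes. Their summed reads were 28608 to 77888 in PBS and 99826 to 128768 in treated libraries. Neutrophil markers were split, 2 lower and 2 higher of 8 listed, at 536 to 967 and 173 to 450 summed reads. Mmp9 had the most reads of these, at means of 666 in PBS and 127 in treated libraries, and S100a8 and S100a9 were the 2 higher. Cdh1 of the 9 epithelial markers and Zbtb7b of the 4 CD4 T cell markers were the members of those lists in the table, and neither was called. The part of these cell types in the fall of class II RNA was not tested.

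The genes whose profiles lay nearest to the median class II profile included Tppp3, Zmynd15, Pstpip2, Lgi4 and F11r, by root mean square difference over the 6 libraries among 5384 genes with at least 50 reads in every PBS library. Their differences ranged from 0.10 to 0.15 on the log2 scale. Zmynd15 stood at 190.0, 181 and 257 normalised reads in PBS against 56.0, 25.2 and 24.8 after treatment, highest in treated library 1 of the treated libraries. H2-Ab1, H2-Aa and Cd74, which shaped the median themselves, lay 0.08, 0.08 and 0.09 from it. H2-Eb1 lay 0.13 from it with 3 other genes nearer, Ciita 0.24 with 62, H2-DMb1 0.34 with 171 and H2-DMb2 0.38 with 250. H2-DMa lay 0.94 from it, with 1246 genes nearer.

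Scaling changed the size of the fall but not its direction. The median of the 8 genes ran from -3.94 with the T cell scaling to -2.12 with median-ratio scaling. The median of all fitted genes moved with it, to -2.16, -0.15, -0.29 and -0.76 with the T cell, median-ratio, TMM and read-total scalings, against -0.57 with the authors' scaling. Relative to the all-gene median, the class II median stayed between -2.35 and -1.71 over the 19 analyses, counting the one reported. With the T cell scaling edgeR called 0 of the 8 genes, at an adjusted p of 0.051, and 0 of all genes, of which 4465 had an unadjusted p under 0.05.

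**Figure D5:**
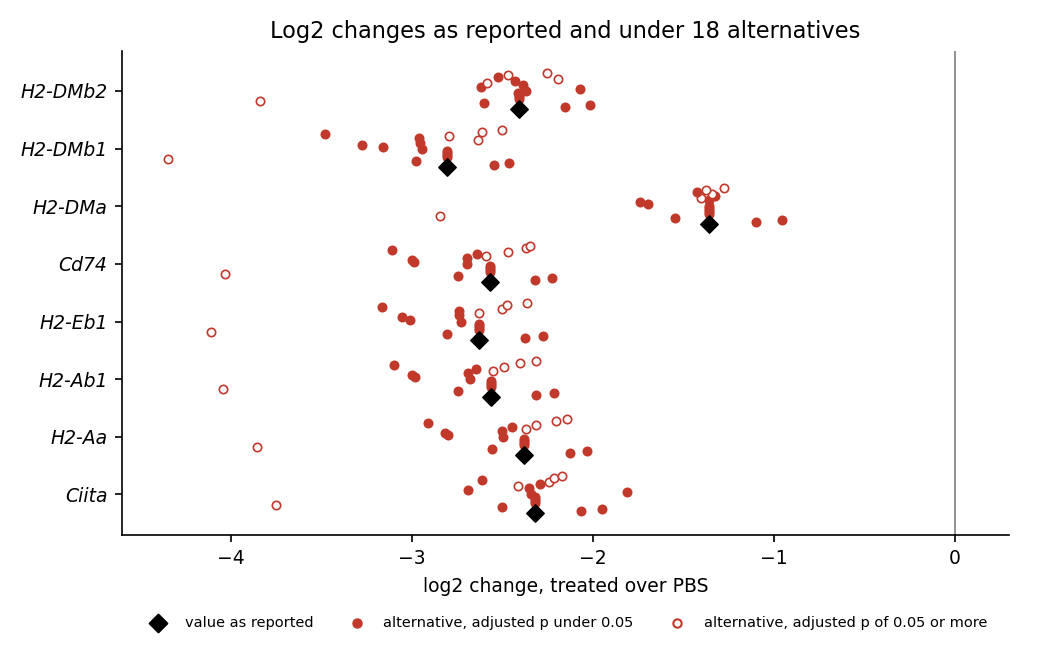
Log2 change, treated over PBS, of each gene as reported (black diamonds) and under 18 alternatives (circles, filled where the adjusted p was under 0.05). All values are below 0, from -4.35 for H2-DMb1 to -0.95 for H2-DMa, and the leftmost circle of each gene is the T cell scaling.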

How the data were processed

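The authors deposited 1 table of genes for 6 libraries. Per the file headers it gives unscaled read counts (estimated counts, whole or fractional) and TPM for each library, with the authors' log2 fold change, p-value and q-value. HISAT2 and RSEM are named in the submitters' processing notes; the build, read strand and test are not given in the sources used here. Benjamini-Hochberg adjustment over 17077 genes returned all deposited q-values within 1e-06. All 8 genes matched RefSeq by identifier and symbol.

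The authors' size factors were recovered from the deposited log2 changes of 3105 genes with over 200 reads in each library (median absolute residual 9.9e-05 on the log2 scale). Rounded counts went into a robust quasi-likelihood fit in edgeR 4.0.16 (R 4.3.3, genes kept by filterByExpr, group as the only term, two-sided), adjusted over 17077 genes at 0.05. The SE is the log2 change over the square root of F. Alternatives used DESeq2 1.42.0 and limma 3.58.1. Ratios used exact permutation tests in SciPy 1.17.1.

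The genes, lists and tests were chosen with earlier results of these data known. Named genes are all 9 symbols, the 6 nearest profiles (1 of them is not reported here), and from each list up to 5 of the largest changes plus genes the text needed. The chromosomal neighbours were added after values were seen. Libraries of a group differed by more than counting noise (chi-square per degree of freedom from 6.9 to 159.7), so each was counted once.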

Additional observations from a re-analysis of the deposited data

How the results depend on the processing

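All 8 genes kept their direction in the 18 alternatives, and each kept its call in 13 and lost it in 5: the scaling on T cell receptor signalling genes and the 4 omissions of a library named next. Leaving out 1 library gave between 0 and 8 called class II genes and between 0 and 3038 genes called lower in all; 0 were called without PBS library 1, PBS library 3, treated library 2 or treated library 3, and 3038 without treated library 1. The class II median was -3.94, with 0 members and 0 genes called, under the T cell scaling. The number of genes called lower, 1296 as reported, was 2027 with read-total scaling, 447 with a filter of 50 reads in 3 libraries, 3459 adjusted over the table's genes alone, 3674 with DESeq2, 2848 with limma-voom, and 3543 or 3550 with limma on log2(TPM + 1) or log2(TPM + 0.1). Lower genes made up 55.7% of calls as reported, 37.2% with TMM, 42.7% with median-ratio and 83.1% with read-total scaling. With the replicate number as a block, edgeR called all 8 class II genes and 2594 genes lower; deviations of same-numbered libraries correlated at 0.64, 0.68 and -0.35 over genes, so the numbers were not taken to pair the samples. The cause of these differences was not tested. Depth limits H2-DMb2 most, at 16.1 deposited reads in its lowest library. No groups of 4 or more libraries existed in which a library standing apart could be tested for.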
